A study of Mus musculus with 4 samples.

Results

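Cytokine receptor signaling was examined through 10 genes of splenic follicular B (FOB) cells, the recirculating mature B cells of the spleen. The genes were picked by symbol from the 55401 genes of the count table. They encode 3 type I cytokine receptor chains (Il4ra, Il21r and Il2rg), 3 type II receptor chains (Il10ra, Ifngr1 and Ifnar1), 2 Janus kinases (Jak1 and Jak3) and 2 STAT factors (Stat3 and Stat6). FOB cells were sorted as B220+CD93-CD23highCD21low from C57BL/6 mice labelled as 7 weeks old, and poly(A) RNA was sequenced in 2 libraries per genotype. Hnrnpf bKO cells came from Hnrnpf fl/fl mice in which Cre, expressed in B-lineage cells, removes exon 4 of Hnrnpf. WT cells came from Hnrnpf fl/fl controls without Cre, so a Cre-only control was not part of the comparison. The labels do not say whether cells of several mice were pooled or whether the libraries are separate mice, so p-values measure the spread between these libraries alone. In bulk RNA, fewer cells that express a gene and less RNA per cell cannot be told apart.

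Cytokine receptors of these classes have no kinase of their own. Ligand binding brings together receptor chains that carry Janus kinases, the kinases phosphorylate the receptor tails and the STAT factors docked there, and the STAT dimers enter the nucleus and bind DNA. In B cells, IL-4 acts through Il4ra and Stat6, IL-21 through Il21r and mainly Stat3, and both receptors share the common gamma chain encoded by Il2rg, which binds the kinase encoded by Jak3. HnRNP F, the product of Hnrnpf, is an RNA-binding protein that recognizes runs of G in pre-mRNA and influences splicing.

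The 4 libraries held between 15698567 and 18908963 counts, and replicates differed by a biological coefficient of variation of 5.90%. Hnrnpf itself had 5780 and 6634 counts in WT against 1167 and 1194 in the bKO libraries, or 20.1% of the WT level, with an adjusted p of 1.05e-10 in edgeR's quasi-likelihood test. The libraries therefore carried the genotype their labels give. The log2 fold changes that follow are Hnrnpf bKO against WT, adjusted by Benjamini-Hochberg over the 14123 genes tested.

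All 10 genes passed the filter on low counts and were abundant. Levels that can be set beside each other between genes are FPKM values, which scale the reads of a gene by its length and by the depth of the library. In WT cells, Il2rg was highest at 125 ± 0.700 FPKM (SD, n = 2), followed by Il21r and Jak1, whose libraries overlapped at 104.92 to 113.74 and 104.88 to 109.64 FPKM. Il10ra and Il4ra came next and overlapped as well, with 76.89 to 88.15 and 76.16 to 77.91 FPKM. Stat6, Jak3, Ifngr1, Ifnar1 and Stat3 followed in that order without overlap between neighbours, down to 24.0 ± 0.403 FPKM for Stat3. Even Stat3 stood above 83.8% of the genes tested in WT. In Hnrnpf bKO cells Il2rg remained first at 125 ± 2.56 FPKM, while Il10ra moved up to overlap with Jak1, and Il21r and Il4ra each stood lower in the order than in WT.

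**Figure D1:**
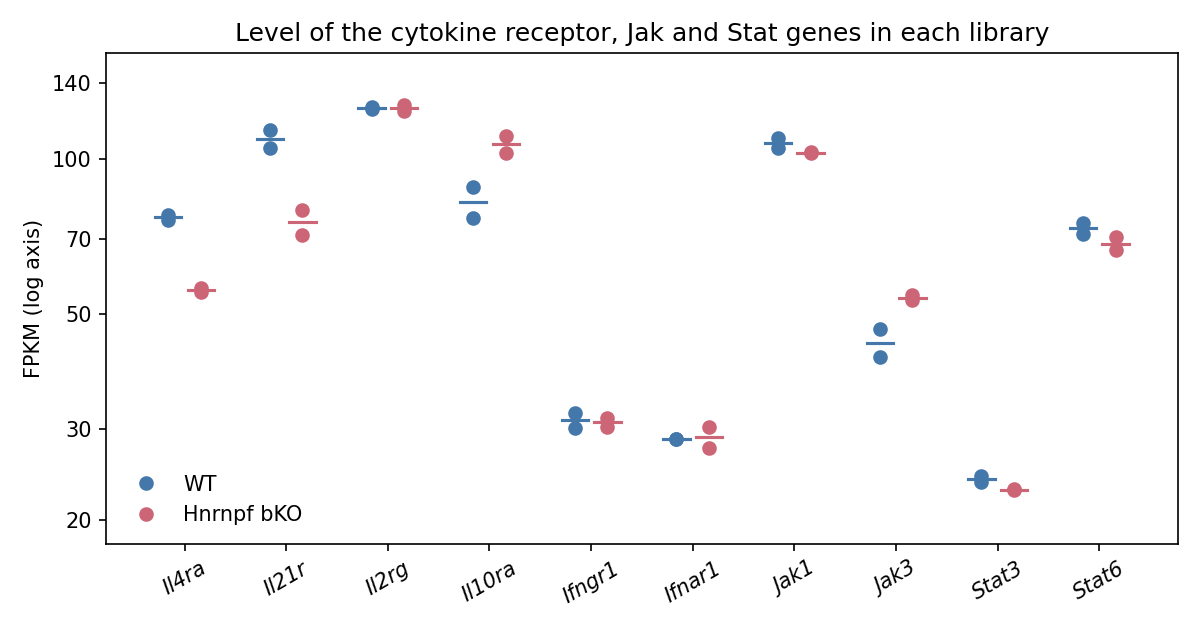
FPKM on a log axis for each of the 10 genes, with 1 point per library (2 WT, 2 Hnrnpf bKO) and a short line at the mean of each group. The bKO points of Il4ra and Il21r lie below both WT points, and those of Il10ra and Jak3 lie above both.

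Of the 10 genes, 4 passed an adjusted p of 0.05, 2 of them lower (Il4ra and Il21r) and 2 higher (Il10ra and Jak3) in Hnrnpf bKO cells. Over all genes tested, 6.97% passed in either direction, 2.83% as lower and 4.15% as higher. The 10 genes are more abundant than most, and the share among genes of like abundance was not taken. No gene of the 10 reached a 2-fold change, which 0.899% of all genes did together with the adjusted p. The median log2 fold change of the 10 genes was -0.03, and that of all genes tested was -0.00. In CPM, counts scaled to TMM library sizes, the genotypes' libraries were fully separated for 6 of the 10 genes, compared with 50.1% of all genes tested, so separation of the libraries alone said little about this group. On log2(FPKM + 0.1) with limma, 1 of the 10 genes passed, namely Il4ra, and 45 genes did in all.

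**Figure D2:**
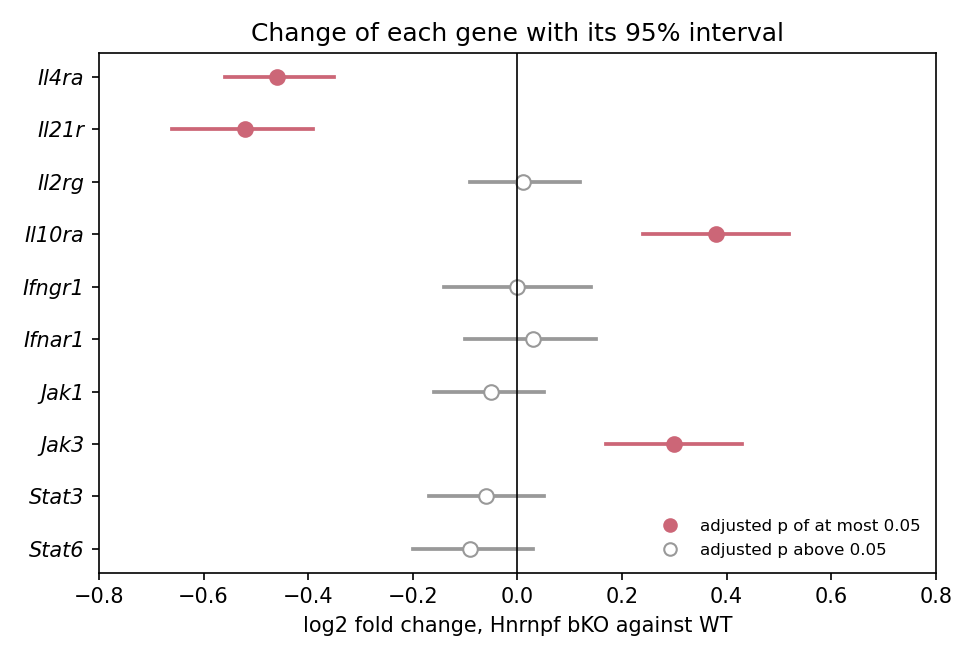
Log2 fold change of Hnrnpf bKO against WT for each of the 10 genes, with bars for the 95% interval and filled points for an adjusted p of at most 0.05. Intervals of Il4ra and Il21r lie below 0, those of Il10ra and Jak3 above 0, and the other 6 include 0.

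Among the type I receptors, both ligand-specific chains fell, while the shared chain did not pass the test. Il4ra, which binds IL-4 and pairs with either the common gamma chain or Il13ra1, had 7479 and 8842 counts in WT against 5207 and 6099 in the bKO libraries, equal to 76.16 and 77.91 against 55.26 and 56.22 FPKM. Both bKO libraries lay below both WT libraries, at 72.9% of the WT level. Its log2 fold change was -0.46 with an SE of 0.05 and a 95% interval of -0.56 to -0.35, at an adjusted p of 0.000127 in edgeR's quasi-likelihood test.

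Il21r, the chain that binds IL-21, a cytokine of follicular helper T cells, had 5706 and 7149 counts in WT against 3718 and 4782 in the bKO libraries. Its FPKM values were 104.92 and 113.74 in WT against 71.25 and 79.59 in the bKO libraries, so the groups did not overlap and the bKO level was 69.6% of WT. The log2 fold change was -0.52, with an SE of 0.06 and a 95% interval of -0.66 to -0.39, at an adjusted p of 0.000296 in edgeR's quasi-likelihood test. On log2(FPKM + 0.1) with limma its adjusted p was 0.0737. By contrast Il2rg had 124.63 and 125.62 FPKM in WT against 127.21 and 123.59 in the bKO libraries, with overlapping libraries. The resulting log2 fold change of 0.01 had an interval of -0.09 to 0.12 and an adjusted p of 0.909 in the same edgeR test.

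Il4ra and Il21r are neighbours on the same strand of chromosome 7. In the count table (GRCm38), Il4ra spans chr7:125552120-125579474 and Il21r chr7:125603429-125633570, both on the plus strand, with 23954 bases and no other gene of the table between them. Their promoter windows in RefSeq (GRCm38.p6), from 250 bases before to 50 after the RefSeq start of the gene, are shown because these 2 neighbours fell together. The RefSeq start of Il4ra lies inside the gene as the count table gives it. Both were searched on both strands for TTCNNNGAA, the spacing most STAT factors bind, for the STAT6 motif, whose half-sites are a base farther apart, and for the octamer ATGCAAAT bound by Oct1 and Oct2, the last added with the fold changes known. Capitals mark a match.
Il4ra, chr7:125552021-125552320, plus strand: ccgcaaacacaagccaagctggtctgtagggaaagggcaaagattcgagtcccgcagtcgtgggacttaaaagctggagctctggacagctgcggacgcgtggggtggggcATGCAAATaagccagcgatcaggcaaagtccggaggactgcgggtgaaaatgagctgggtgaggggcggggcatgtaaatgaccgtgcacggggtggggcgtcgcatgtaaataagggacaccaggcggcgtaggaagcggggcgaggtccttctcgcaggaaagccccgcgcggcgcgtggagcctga
Il21r, chr7:125603179-125603478, plus strand: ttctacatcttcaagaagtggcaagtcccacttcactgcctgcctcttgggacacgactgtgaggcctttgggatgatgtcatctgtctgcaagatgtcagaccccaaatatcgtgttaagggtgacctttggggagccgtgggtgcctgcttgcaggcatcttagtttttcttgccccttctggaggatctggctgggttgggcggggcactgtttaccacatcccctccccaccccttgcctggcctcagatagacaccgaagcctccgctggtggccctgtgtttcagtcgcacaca
The Il4ra window held 1 octamer, starting at base 112 of the window, and neither window held either STAT spacing. The octamer was present in 1.74% of all 32851 promoter windows of this length, TTCNNNGAA in 8.30% and the STAT6 motif in 6.95%. Of the 9 genes of this group with a window, TTCNNNGAA was found in Ifnar1 alone and the STAT6 motif in none. A match in these letters is a description of the sequence and not a bound site.

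The genes on either side of the pair did not pass. Nsmce1, a subunit of the SMC5/6 complex that lies before Il4ra, had 825 and 1095 counts in WT against 872 and 866 in the bKO libraries. The log2 fold change of Nsmce1 was -0.06, at an adjusted p of 0.776 in edgeR's quasi-likelihood test. Gtf3c1, a subunit of transcription factor IIIC that lies after Il21r, had a log2 fold change of 0.05 and an adjusted p of 0.668 in that test, with 2642 and 2992 counts in WT against 2549 and 2989 in the bKO libraries. Hnrnpf loss and the presence of Cre differ together between the genotypes, so for all 10 genes they cannot be told apart.

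Of the type II receptors, Il10ra rose and neither interferon receptor chain passed the test. Il10ra, the ligand-binding chain of the receptor for the cytokine IL-10, had 5045 and 5086 counts in WT against 6060 and 6494 in the bKO libraries, or 88.15 and 76.89 against 110.36 and 102.71 FPKM. Both bKO libraries lay above both WT libraries, although the WT libraries stood apart from each other. The log2 fold change was 0.38, with an SE of 0.07 and a 95% interval of 0.24 to 0.52, at an adjusted p of 0.00395 in edgeR's quasi-likelihood test. In limma on log2(FPKM + 0.1) the adjusted p was 0.133. A small gene on the other strand, Gm20612, overlaps Il10ra and had 28 and 28 counts in WT against 45 and 53 in the bKO libraries, and the library kit does not mark the strand.

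Ifngr1, the ligand-binding chain for interferon gamma, had 30.16 and 32.19 FPKM in WT against 30.32 and 31.46 in the bKO libraries. The change was -0.00 on the log2 scale, with a 95% interval of -0.14 to 0.14 and an adjusted p of 0.992 in edgeR's quasi-likelihood test. Ifnar1, a chain of the receptor for type I interferons, had 28.64 and 28.67 FPKM in WT against 27.57 and 30.23 in the bKO libraries. The difference was 0.03 on the log2 scale, with an interval of -0.10 to 0.15 and an adjusted p of 0.863. The groups overlapped for both genes, and changes of up to 0.15 on the log2 scale lie within the intervals.

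Between the 2 kinases, Jak3 rose and Jak1 did not pass. Jak3, which binds the common gamma chain and is found mainly in blood cells, had 3615 and 4743 counts in WT against 4575 and 5148 in the bKO libraries. Per length this was 41.29 and 46.87 FPKM in WT against 54.45 and 53.22 in the bKO libraries, so the groups did not overlap and the bKO level was 123% of WT. Its log2 fold change was 0.30, with an SE of 0.06 and a 95% interval of 0.17 to 0.43, at an adjusted p of 0.0092 in edgeR's quasi-likelihood test. Without WT replicate 1, the lower of the 2 WT libraries, the log2 fold change was 0.22 and the adjusted p 0.0544. In limma on log2(FPKM + 0.1) the adjusted p was 0.157. Insl3, a hormone gene of testis and ovary that lies within the 3' part of Jak3 on the same strand, had 95 and 113 counts in WT against 206 and 160 in the bKO libraries, so reads of the shared stretch are assigned to the 2 genes with uncertainty.

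Jak1, which serves type I and type II receptors alike, had 12963 and 14333 counts in WT against 11621 and 13432 in the bKO libraries, the highest counts of the group. Both bKO libraries, at 102.43 and 102.83 FPKM, lay below the WT libraries at 109.64 and 104.88. The log2 fold change of -0.05 had an interval of -0.16 to 0.05 and an adjusted p of 0.600 in edgeR's quasi-likelihood test.

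Neither STAT factor passed. Stat6, the factor activated by IL-4, had 75.20 and 71.43 FPKM in WT against 66.51 and 70.42 in the bKO libraries, which did not overlap, whereas in CPM the groups met, at 331 and 313 for WT against 293 and 313 for the bKO libraries. Its log2 fold change was -0.09, with a 95% interval of -0.20 to 0.03 and an adjusted p of 0.409 in edgeR's quasi-likelihood test. Stat3, activated by IL-10, IL-21 and IL-6, had 23.73 and 24.30 FPKM in WT against 22.83 and 22.93 in the bKO libraries, without overlap on either scale. This gave a log2 fold change of -0.06, with an interval of -0.17 to 0.05 and an adjusted p of 0.576. Stat3 overlaps the neighbouring Stat5a on the other strand, and Stat6 overlaps Nab2 on the other strand, at their ends.

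The authors' splicing table, which lists events they called between the genotypes, held 3 events in 2 of the 10 genes. These were 2 retained introns in Jak3 and 1 skipped exon in Stat6. A row in that table was held by 8.22% of all genes tested and by 12.9% of the 3970 tested genes whose mean reached 1000 counts, a level each of the 10 genes exceeded. Of 213 genes with a retained intron row, Jak3 was 1 of 13 with at least 2. The other 8 genes, Il4ra, Il21r and Il10ra included, had no row. The table gives no position for its events, so the introns concerned in Jak3 are not identified here.

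The annotation shows which Jak3 introns are found unspliced in other transcripts. In GENCODE M21 (GRCm38), 3 of the 24 introns of the transcript Jak3-201 lie whole inside an exon of a Jak3 transcript of the retained intron class. Introns 5 and 8 are shown, since retained introns are the events listed for Jak3 and hnRNP F binds runs of G. They were chosen with the splicing rows known, and whether they are the introns of those rows is not given. Capitals mark runs of 3 or more G.
Jak3 intron 5, chr8:71679348-71679558, plus strand: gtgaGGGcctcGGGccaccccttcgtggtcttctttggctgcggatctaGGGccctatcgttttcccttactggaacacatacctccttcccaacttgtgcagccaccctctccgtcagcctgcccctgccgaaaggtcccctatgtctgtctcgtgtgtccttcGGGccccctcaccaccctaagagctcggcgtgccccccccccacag
Jak3 intron 8, chr8:71680798-71680882, plus strand: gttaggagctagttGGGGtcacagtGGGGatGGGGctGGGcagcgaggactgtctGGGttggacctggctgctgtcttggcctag
Intron 5 holds 4 such runs in 211 bases and intron 8 holds 5 in 85 bases, with a GC content of 63.0% and 62.4%. The third, intron 6 at chr8:71679845-71680434, holds 21 runs in 590 bases. Over the genes tested that are in the annotation, 25.0% have at least 1 intron that lies whole inside an exon of another transcript of any class. The runs of G were not compared with those of other introns.

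Around these 10 genes, 97 further genes of the pathway were followed in 6 lists. Socs1, Socs3 and Cish stand in the lists of inhibitors and of STAT targets alike. Of these, 65 were tested, 8 were higher and 3 lower in Hnrnpf bKO cells, with a median log2 fold change of 0.02. The 11 that passed make 16.9% of those tested, beside 6.97% of all genes. The cells held little mRNA for most ligands, and 11 of 24 ligand genes, Il2, Il13, Il9 and Ifnb1 among them, had 0 counts in every library, which allows a level of up to 0.191 CPM in the shallowest. Il4 had 6 and 10 counts in WT against 2 and 5 in the bKO libraries, too few to be tested.

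Of 4 ligands tested, Il12a, the p35 chain of IL-12 and IL-35, was higher. It had 375 and 506 counts in WT against 501 and 645 in the bKO libraries, a log2 fold change of 0.46 with an adjusted p of 0.018 in edgeR's quasi-likelihood test. Ebi3, its partner in IL-35, had 0.19 (adjusted p = 0.449), Osm -0.40 (adjusted p = 0.179) and Il15 -0.01 (adjusted p = 0.997) on the log2 scale in that test. None of the 4 partner chains passed. The log2 fold changes were -0.06 for Ifngr2, 0.09 for Il10rb and -0.02 for Ifnar2, the second chains of the receptors for interferon gamma, IL-10 and type I interferons, and 0.33 for Il13ra1, which had only 26 to 35 counts. The 0.38 of Il10ra was thus not accompanied by a call for Il10rb, whose interval was -0.05 to 0.24.

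The largest changes in the pathway lists were in other receptors, 3 of which were higher and none lower among 19 tested. Il9r, the receptor chain for IL-9, had 2670 and 2899 counts in WT against 5022 and 6164 in the bKO libraries. Both bKO libraries were well above WT, at 2.11 times its level, with a log2 fold change of 1.07 (SE 0.06) and an adjusted p of 2.87e-07 in edgeR's quasi-likelihood test. Its partner chain is that of Il2rg, which did not pass. Csf2ra, the binding chain for GM-CSF, had 660 and 1014 counts in WT against 1426 and 1625 in the bKO libraries, a log2 fold change of 0.95 with an adjusted p of 0.000128 in edgeR's test.

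Il11ra1, the receptor chain for IL-11, had 284 and 333 counts in WT against 418 and 477 in the bKO libraries, with a log2 fold change of 0.61 and an adjusted p of 0.00288 in edgeR's quasi-likelihood test. The 4 further receptors of highest FPKM did not pass. Their log2 fold changes were 0.05 for Crlf2, the receptor chain for TSLP, -0.10 for Il27ra, -0.07 for Il5ra and -0.20 for Il6ra.

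Among 7 other kinases and STATs, Tyk2 was lower and Stat2 higher. Tyk2, the kinase bound by Ifnar1 and Il10rb, had 2777 and 3377 counts in WT against 2308 and 2702 in the bKO libraries, with a log2 fold change of -0.22 and an adjusted p of 0.0257 in edgeR's quasi-likelihood test. Stat2, which acts downstream of type I interferon, had 3285 and 3741 counts in WT against 3538 and 4303 in the bKO libraries, with a log2 fold change of 0.23 and an adjusted p of 0.0207 in that test. Those of Stat5b (-0.03), Jak2 (-0.14) and Stat4 (0.19) did not pass.

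Among 16 inhibitors tested, Ptpn6 was lower and Socs4 higher. Ptpn6 encodes the phosphatase SHP-1, which removes phosphate from receptors and Janus kinases, and was the most abundant inhibitor in the list. Its counts were 17875 and 21630 in WT against 14922 and 16653 in the bKO libraries, with a log2 fold change of -0.25 and an adjusted p of 0.00695 in edgeR's quasi-likelihood test. Socs4, of the suppressor of cytokine signaling family, had a log2 fold change of 0.24 and an adjusted p of 0.0336 in that test. Ptpn1, Pias4, Ptpn11 and Pias1 lay between -0.06 and 0.02.

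Of 18 genes known to be induced by STAT factors, 2 were higher, 1 was lower and 15 did not pass. Myc, the growth factor-responsive transcription factor, had 1500 and 1992 counts in WT against 1966 and 2140 in the bKO libraries, with a log2 fold change of 0.32 and an adjusted p of 0.0146 in edgeR's quasi-likelihood test. Fcer2a, which encodes CD23, a target of Stat6 in B cells and a marker of the sort itself, had a log2 fold change of 0.22 and an adjusted p of 0.018 in that test. It held 5 rows of the splicing table. Pim1, a kinase gene downstream of Stat3 and Stat5, had 1075 and 1238 counts in WT against 798 and 939 in the bKO libraries, with a log2 fold change of -0.34 and an adjusted p of 0.0128. Mcl1, Irf1, Irf9 and Xbp1 lay between -0.07 and 0.07.

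**Figure D3:**
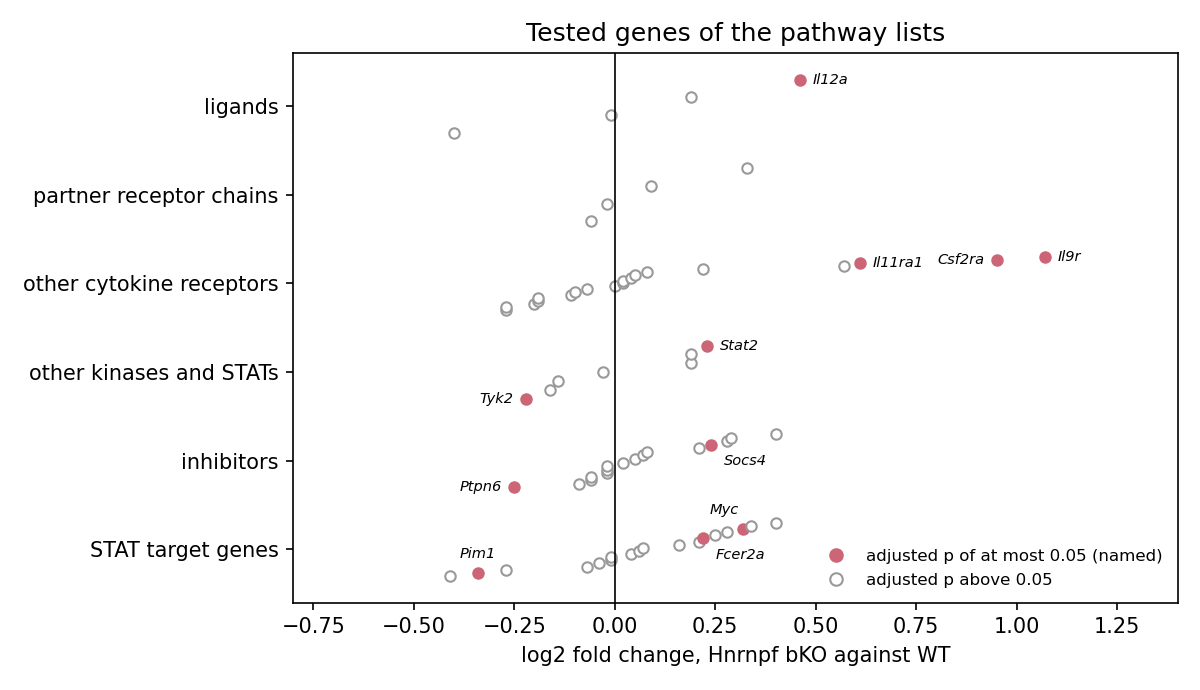
Log2 fold change of Hnrnpf bKO against WT for every tested gene of the 6 pathway lists, each list in a row of its own, with the 11 genes at an adjusted p of at most 0.05 filled and named. Il9r and Csf2ra lie farthest from 0, at 1.07 and 0.95, and all 4 partner receptor chains are unfilled.

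Among these pathway genes, Bcl6, Csf2ra, Fcer2a, Il12a, Il3ra, Pias3 and Tyk2 had a row in the splicing table. Retained introns were listed for Bcl6, Csf2ra, Il12a and Pias3, as for Jak3.

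The libraries held markers of B cells at high levels, with a mean of 2176 CPM for Cd79a, 1651 CPM for Cd79b and 4668 CPM for Ighm in WT. Of the B cell markers, Fcer2a and Ighd were higher and Ms4a1 and Pax5 lower in Hnrnpf bKO. Of 7 marginal zone markers, Cd1d1 and Plac8 were higher and Cr2, Dtx1 and S1pr3 lower. Their sum was 1708 and 1516 CPM in WT against 1339 and 1336 in the bKO libraries, and without Cr2 it was 624 and 614 against 621 and 622 CPM. Cr2, which encodes CD21 of the sort gate, had a log2 fold change of -0.47 and an adjusted p of 0.0014 in edgeR's quasi-likelihood test. Of 4 transitional B cell markers, Cd93 was higher and Spn lower. None of 5 plasma cell, 8 T cell, 4 NK cell or 4 tested erythroid markers passed.

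A few myeloid and dendritic markers, all low, were higher in Hnrnpf bKO. The 8 myeloid markers summed to 14.0 and 20.8 CPM in WT against 23.6 and 34.1 in the bKO libraries, with S100a8 and S100a9 higher. The other 4 tested did not pass and went both ways. Their log2 fold changes were 0.71 for Itgam, 0.56 for Lyz2, -0.21 for Csf1r and -0.86 for Adgre1. The 5 dendritic markers summed to 12.3 and 15.7 in WT against 21.8 and 27.5 in the bKO libraries, with Flt3 alone passing of 3 tested. Without Flt3 the dendritic sum was 3.73 and 4.94 CPM in WT against 4.08 and 3.12 CPM in the bKO libraries. Cd14 and Fcgr1, defining markers of monocytes and macrophages, had 0 to 3 counts in each library. The part of such cells in the changes of Csf2ra, which is abundant in myeloid cells, and of Il10ra was not tested. Between the group means, Il10ra went from 288 to 375 CPM and Csf2ra from 46.8 to 90.8 CPM. Marker sums do not measure all RNA of such cells, so they do not give the part of these cells in either change.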

How the data were processed

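Poly(A) RNA of 2 WT and 2 Hnrnpf bKO FOB samples underwent paired-end sequencing. Read trimming (Cutadapt 1.9.1), alignment to GRCm38 (HISAT2 2.0.1) and counting per gene (HTSeq 0.6.1) were done by the authors. The deposited counts are whole reads per gene without normalization. The authors derived the deposited FPKM values from those counts with exonic gene sizes and library totals. The strand setting of the counting and the annotation release are not given in the sources used here. The authors' splicing table, from rMATS turbo, gives genes and event types together with an FDR and an inclusion level difference. Those last 2 columns are the authors' own comparison and were not used.

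Counts were tested with edgeR 4.0.16 in R 4.3.3 (TMM, filterByExpr, quasi-likelihood F test, Benjamini-Hochberg over 14123 genes). The standard error was derived from the F statistic, and the 95% interval from the t distribution with its degrees of freedom. Alternatives were DESeq2 1.42.0, RLE size factors, edgeR's exact test, other count filters, limma-trend (limma 3.58.1) on log2(FPKM + 0.1) or log2(FPKM + 1), the replicate number as a block and each library left out. With 2 against 2 libraries, the smallest two-sided p of an exact permutation test is 0.333, so none was used. On simulated data of 13846 genes, the test called 52.2% of 67 genes changed 1.25-fold, 82.1% of 67 changed 1.5-fold and 100% of 66 changed 2-fold. It also called 9 unchanged genes. The changed genes were drawn from those with at least 100 expected counts, so these shares do not hold for genes with fewer. Genes varied by the dispersion of the trend with abundance and not by their own. Sequences came from RefSeq promoters and GENCODE M21 transcripts, both of GRCm38.

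Library totals were 16360435 and 18908963 for WT and 15698567 and 18074619 for Hnrnpf bKO. Between replicates of a genotype, chi-square per degree of freedom was 4.3 (WT) and 3.86 (bKO), above sampling noise, and each library was used as 1 replicate. Limits from 0 counts cover counting error only, at 3 counts per library. Named genes are the 10 genes of the group, Hnrnpf, pathway genes past the threshold with up to 4 further ones of highest mean FPKM per list, and cell type markers that are near 0 or touch a result. Nsmce1, Gtf3c1 and genes that overlap the group were added after their values were seen. The genes and lists were chosen with earlier results of these data known. No per-sample column was left unmapped. Results that need certain items are not reported here.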

Additional observations from a re-analysis of the deposited data

How the results depend on the processing

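Of 120 alternative values for the 10 genes, 110 kept their direction and their side of the threshold. Il4ra passed in every alternative run, at log2 fold changes from -0.47 to -0.44 and a highest adjusted p of 0.0497. Il21r, Il10ra and Jak3 were lost with limma, at -0.54 (adjusted p = 0.0737), 0.37 (0.133) and 0.29 (0.157) on log2(FPKM + 0.1) and at -0.53 (0.0743), 0.37 (0.135) and 0.29 (0.157) on log2(FPKM + 1). Those settings called 1 of the 10 genes each, 45 and 41 genes in all, and 22 and 19 with a 2-fold change. The cause was not tested.

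With 1 library left out, the lone library was assumed to vary like the other genotype. The log2 fold changes then ranged from -0.61 to -0.44 for Il21r, from 0.28 to 0.49 for Il10ra and from 0.22 to 0.39 for Jak3, whose adjusted p was 0.0544 without WT replicate 1. Near 0, the sign of Ifngr1 turned to 0.05 without WT replicate 2 and 0.03 without Hnrnpf bKO replicate 1 (range -0.04 to 0.05), and that of Ifnar1 to -0.05 without Hnrnpf bKO replicate 2 (range -0.05 to 0.1). Between 679 and 861 genes were called in all.

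Of 985 genes called, 392 passed at an adjusted p of 0.01 and 1514 at 0.1, and the same number of the 10 genes, 4, passed at each. The 127 genes with a 2-fold change became 84 with DESeq2, 207 with edgeR's exact test and 217 with no filter on low counts. Replicate numbers in the labels give 2 pairs and no shared animal or day. Their deviations correlated at -0.096. With the replicate number as a block, 612 genes were called in all and 4 of the 10, with an adjusted p of 0.0281 for Jak3. The 95% intervals of the 6 genes that did not pass lay between -0.20 and 0.15 on the log2 scale.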
